A study of Canis lupus familiaris with 33 samples.

Results

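The genes described here are 10 members of the inflammatory cytokine network: the ligands IL1A, IL1B, IL6, LIF, OSM, TNF and CSF3, the antagonist IL1RN, and the signalling genes SOCS3 and STAT3. They were taken by gene symbol from the TMM-normalized table, in which each has 1 entry, so that they make up 10 of its 25096 genes, and all 10 passed the filter on low values. RNA had been sequenced in 1 batch from 4 normal canine bladder samples and 29 canine invasive urothelial carcinomas (iUC), a cancer of the epithelium that lines the urinary bladder. Each tumor came from a different dog that had received no treatment, was taken by cystoscopic biopsy and was of high grade, and the dogs were of any age, sex and breed. The normals were the urothelial layer, stripped by dissection from bladders of dogs euthanized for other reasons, so that the groups differ in how the tissue was taken as well as in disease, and these cannot be told apart. Samples are called normal 1 to normal 4 and tumor 1 to tumor 29 by their order in the deposit, which carries no other meaning.

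Interleukin-1α (IL1A) and interleukin-1β (IL1B) act through a shared receptor whose signal reaches NF-κB, the transcription factor that switches on many inflammatory genes, and IL1RN encodes a receptor antagonist that occupies the same receptor without signalling. Tumor necrosis factor (TNF) reaches NF-κB through receptors of its own. IL6, leukemia inhibitory factor (LIF) and oncostatin M (OSM) are cytokines of the IL-6 family, which signal through the shared receptor chain gp130, the JAK kinases and the transcription factor STAT3. SOCS3 is induced by STAT3 and blocks signalling at gp130, and CSF3 (granulocyte colony-stimulating factor) drives the production of neutrophils. The activity of STAT3 is set by phosphorylation, which RNA does not measure.

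The deposited values are on a log2 scale and are centred for each gene on its median over the 33 samples, so they compare samples within a gene and not genes with each other. Many genes have a lowest value that several samples share, which stands for 1 normalized unit on the linear scale. Between 755 and 1019 genes were at it in a normal and between 3699 and 8175 in a tumor. A read pair was worth about 3.24 normalized units in a normal and 2.06 in a tumor (medians over samples, read from the lowest steps). Over all genes tested, the median log2 fold change of tumors against normals was -0.84, and over the 18418 genes with a median above their lowest value it was -0.01. Tumors 14, 17 and 25 had at most 4638 genes at the lowest value and the other 26 tumors at least 5945, and results were also computed without these 3. The smooth muscle markers stood high in the normals, with all 4 measured genes of 7 listed lower in tumors (ACTG2, an actin of visceral smooth muscle, by a log2 fold change of -7.05), as did 5 of 6 measured fibroblast markers. Of the urothelial markers 7 of 8 were measured, with 3 higher (PPARG and FOXA1 not in the DESeq-normalized table) and 1 lower in tumors, and all but KRT20, which 9 tumors had at its lowest value, were above it in every tumor. Of 3 measured basal squamous markers 1 was lower (PI3) and 0 higher, and of 6 endothelial markers limma called 0, with 0 at an unadjusted p under 0.05 and TEK lower in the DESeq-normalized table. These counts are to be read against all genes tested, of which 10.7% were called higher in tumors and 45.8% lower by the test given below. In bulk samples such as these, fewer cells of a type and less RNA per cell cannot be told apart.

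SOCS3 and LIF were higher in tumors than in normals, CSF3 was lower, and the other 7 members did not pass both thresholds of the test. The test was limma on the deposited log2 values with Benjamini-Hochberg adjustment over all 24471 genes tested, and a call needed an adjusted p of at most 0.05 and at least a 2-fold change. By this rule 10.7% of all genes tested were called higher in tumors and 45.8% lower, so the 2 of 10 members called higher and the 1 of 10 called lower are to be read against those shares. Among the 18418 genes with a median above their lowest value, the shares were 14.2% and 30.4%. The median log2 fold change of the 10 members was 0.36. In the DESeq-normalized table, where the median over all genes was -1.11, 5.62% of genes were called higher and 49.1% lower, and SOCS3 and CSF3 kept their calls while LIF lost its call.

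**Figure D1:**
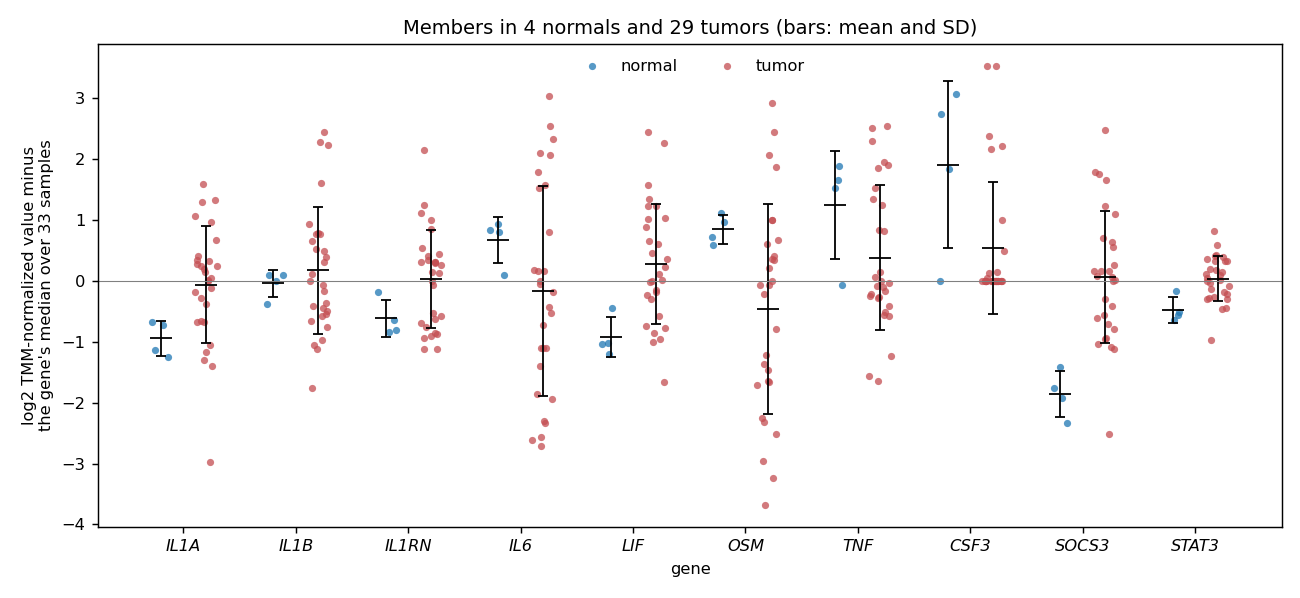
Values of the 10 members in each of the 4 normals (blue) and 29 tumors (red), as log2 TMM-normalized value minus the gene's median over 33 samples; bars give the mean and SD of each group. For IL1B, IL6 and OSM the tumors run far above and below the 4 normals, and for SOCS3 all tumors but tumor 29 lie above every normal.

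SOCS3, the feedback inhibitor, stood furthest from its level in normals. Its values in normals 1 to 4 were -1.92, -1.41, -2.33 and -1.76, and in the tumors they ran from -2.51 through a median of 0.06 to 2.48. Of the 29 tumors, 28 lay above every normal and tumor 29 lay below every normal, so the groups overlapped only through that tumor. The mean rose from -1.85 ± 0.38 (SD, n = 4) to 0.06 ± 1.08 (SD, n = 29), a log2 fold change of 1.92 (SE 0.54, limma adjusted p = 0.00203) or 3.78-fold. An exact permutation test of the group labels for this gene gave a two-sided p of 0.00139. Over the 13 fits, which include the DESeq-normalized table and each normal left out in turn, its log2 fold change lay between 1.62 and 2.07 with an adjusted p of at most 0.0126.

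STAT3 itself, the transcription factor that induces SOCS3, had a smaller difference and a smaller spread. Its values in the normals were -0.51, -0.16, -0.56 and -0.65, against a lowest tumor at -0.97, a median of 0.05 and a highest tumor at 0.83. It lay above every normal in 20 of 29 tumors, and the difference of 0.51 on the log2 scale (SE 0.20, limma adjusted p = 0.0219) passed the test but fell short of 2-fold. By the adjusted p alone, 22.9% of all genes tested were higher in tumors. In the DESeq-normalized table the difference was 0.21 with a limma adjusted p of 0.343, the highest of its 13 fits, of which the lowest was 0.0169. STAT3 was also the member that varied least among tumors, with an SD of 0.37 that exceeded the SD of 20.6% of genes.

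Among the ligands of the IL-6 family, LIF was the member that rose. LIF, a cytokine that acts through its own receptor chain paired with gp130, had values of -0.45, -1.04, -1.19 and -1.03 in the normals. In the tumors it ran from -1.67 in tumor 24 through a median of 0.12 to 2.44 in tumor 22, and 22 of 29 tumors lay above every normal. Its log2 fold change was 1.20 (SE 0.49, limma adjusted p = 0.0286), or 2.30-fold. The call depended on the processing: in the DESeq-normalized table the log2 fold change was 0.91 with an adjusted p of 0.105, the highest of its 13 fits, and the call was also lost without normal 2, normal 3 or normal 4, where the adjusted p was 0.0682, 0.0795 and 0.0693. The lowest adjusted p over these fits was 0.0269.

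IL6 and OSM differed from LIF in their spread among tumors, not in a mean difference that passed the test. IL6, an inducer of acute inflammation and of B-cell and T-cell responses, had values of 0.83, 0.93, 0.81 and 0.10 in the normals and ran from -2.70 in tumor 6 through a median of -0.19 to 3.03 in tumor 20. OSM, which in inflamed tissue comes largely from neutrophils, monocytes and T cells, had values of 0.96, 0.72, 0.59 and 1.11 in the normals and ran from -3.68 in tumor 8 through -0.07 to 2.92 in tumor 28. The range among tumors was thus 53.4-fold for IL6 and 97.0-fold for OSM, and each had a larger SD among tumors than 96.1% of genes. For IL6, 8 tumors lay above every normal and 17 below every normal. For OSM the counts were 4 and 21. The log2 fold changes were -0.83 for IL6 (95% interval -2.55 to 0.89, limma adjusted p = 0.381) and -1.30 for OSM (95% interval -3.02 to 0.42, limma adjusted p = 0.168), so a difference of either mean was not detectable with 4 normals.

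No mean difference of the IL-1 members passed the test, although many tumors lay outside the range of the normals. IL1A had values of -0.67, -1.13, -1.24 and -0.73 in the normals and -2.97, 0.05 and 1.59 as the lowest, median and highest tumor. It lay above every normal in 22 of 29 tumors, the same count as for LIF, with a log2 fold change of 0.89 (95% interval -0.08 to 1.85, limma adjusted p = 0.0945). IL1B had normals at 0.10, -0.38, 0.00 and 0.11, close to the median of all samples, whereas the tumors ran from -1.76 in tumor 29 through -0.00 to 2.45 in tumor 25, an 18.6-fold range. With 14 tumors above and 11 below every normal, its log2 fold change was 0.21 (95% interval -0.84 to 1.26, limma adjusted p = 0.719), and in the DESeq-normalized table it changed sign to -0.084. IL1RN, the antagonist, had normals at -0.64, -0.18, -0.81 and -0.83 and tumors from -1.11 in tumor 4 through 0.15 to 2.16 in tumor 9. Its log2 fold change was 0.64 (95% interval -0.17 to 1.46, limma adjusted p = 0.151), with 18 tumors above every normal and 6 below.

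TNF had values of 1.89, 1.66, -0.06 and 1.52 in the normals, so that normal 3 stood 1.96 below the highest. The tumors ran from -1.64 in tumor 18 through -0.04 to 2.55 in tumor 25, with 5 tumors above every normal and 14 below. The log2 fold change was -0.87 (95% interval -2.09 to 0.36, limma adjusted p = 0.198). TNF was the member whose values went with the number of genes at the lowest value: over the tumors, Pearson's r was -0.668 (permutation p adjusted over the 10 members 0.0005) and Spearman's rho -0.646 between its values and the number of genes at the lowest value. For the other 9 members the adjusted permutation p of this r was at least 0.284. With that number regressed out of the members, TNF kept its correlations over the tumors with LIF and IL1B, and that with OSM dropped to 0.329 and no longer passed.

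CSF3 rested on very few reads. In normals 1 to 4 its values were 3.07, 2.74, 1.84 and 0.00, of which the last is the shared lowest value. In the tumors the lowest and the median were both that lowest value and the highest was 3.53, and 19 of 29 tumors stood at it. The highest normal corresponded to 8.38 normalized units, or about 2.43 read pairs, and the highest tumor, tumor 15, to 11.6 units, or about 6.22 read pairs. More than 2 read pairs were present in 2 normals and 4 tumors. The log2 fold change was -1.37 (SE 0.58, limma adjusted p = 0.0341), with 2 tumors above every normal and 27 within their range. When all values were raised to at least 4 normalized units it was -0.32 with an adjusted p of 0.180, and the call was also lost without normal 1, normal 2 or normal 3, with adjusted p of 0.183, 0.141 and 0.0633. Over its 12 fits the adjusted p lay between 0.00581 and 0.183. CSF3 is therefore at the limit of detection in both groups.

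**Figure D2:**
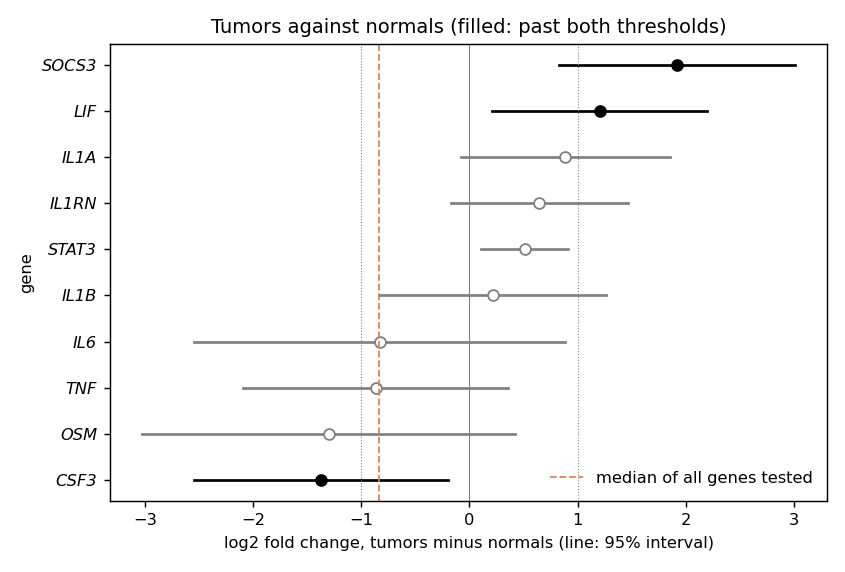
Log2 fold change of tumors against normals for the 10 members, with 95% intervals from limma; filled points passed both thresholds, and the dashed line is the median of all genes tested, -0.84. SOCS3 at 1.92 and LIF at 1.20 lie above 0, CSF3 at -1.37 lies below, and the intervals of IL1A, IL1RN, IL1B, IL6, TNF and OSM cross 0.

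The other genes of these pathways were described from 8 lists with 66 of 85 genes tested, of which 19 were called higher and 8 lower, with a median log2 fold change of 0.54. Over all genes tested 10.7% were higher and 45.8% lower, with a median of -0.84. Of the 66, 14 were higher and 11 lower in the DESeq-normalized table. Of the ligands of the wider IL-1 family 4 of 6 measured were lower and 0 higher. IL1F10 (interleukin-38), a family member described as an antagonist, had a log2 fold change of -5.06, and IL36B, an epithelial agonist, of -4.03. The other falls were IL36RN, the antagonist of interleukin-36 signalling, at -3.17 and IL37, a ligand described as dampening inflammation, at -2.01. Of the 29 tumors, 12 were at the lowest value for IL1F10, 24 for IL36B, 28 for IL36RN and 0 for IL37, in a table where 45.8% of genes were lower. IL18 and IL33 had values of -0.14 and -1.06 and were not called, though IL33 was called lower in the DESeq-normalized table.

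Among the IL-1 receptors and their signalling genes 3 of 12 were higher and 0 lower, beside 10.7% and 45.8% of all genes tested. IL1RL1, the receptor for interleukin-33, had a log2 fold change of 2.62 and lay above every normal in 27 tumors and below every normal in 2. SIGIRR, a receptor that restrains signalling of the family, had 1.68, and the adaptor MYD88 had 1.29, though without a call in the DESeq-normalized table, where 2 of 12 were higher and 2 (IL1R2 and IL18RAP) lower. The receptor of IL1A and IL1B, IL1R1, had -0.86 and was not called. Both measured inflammasome genes separated the groups in every tumor: GSDMD, whose cleaved product forms pores in the cell membrane, was higher by a log2 fold change of 2.39, and NLRP3, a sensor whose complex matures interleukin-1β, was lower by a log2 fold change of -1.99. Every tumor lay above every normal for 7.63% of all genes tested and below for 28.5%.

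In the IL-6 family, CLCF1, another ligand that signals through gp130, was higher by 2.19 and IL27, which pairs with EBI3, was lower at -2.69 with 15 of 29 tumors at its lowest value, while IL11, CTF1, CNTF and EBI3 were not called. Of 14 receptors and JAK-SOCS genes measured, 0 were higher and CNTFR, a receptor chain of the family, was lower at -4.86, against 10.7% and 45.8% of all genes. In this list 7 of 14 genes had an unadjusted limma p under 0.05, against 73.1% of all genes tested. IL6ST, which encodes gp130, had a log2 fold change of 0.99, short of 2-fold, and was called higher in 4 of 13 fits. IL6R, LIFR, OSMR and CSF3R, the receptors of the ligands described above, had -0.67, -0.39, 0.49 and -0.07, and none was called.

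The 3 lists of genes downstream are given beside the 10.7% of all genes tested that were called higher and the 45.8% called lower. Of 10 TNF receptor and NF-κB genes 6 were higher and 0 lower, including the NF-κB subunit REL at 1.44 and the TNF receptor TNFRSF1B at 1.35. In the DESeq-normalized table TNFRSF1B, TRAF2, ADAM17 and TNFAIP3 lost their calls, which left REL and TRADD, or 2 of 10, where 5.62% of all genes were called higher. Of 9 NF-κB response genes 4 were higher and 0 lower, led by PTGS2 (cyclooxygenase-2) at 3.39 and the monocyte chemokine CCL2 at 1.83. PTGS2 lay above every normal in 28 of 29 tumors. Of 6 STAT3 response genes 4 were higher, led by CEBPB at 1.94 and BCL3 at 1.70, both transcriptional regulators of inflammation, and 1 was lower, the fibrinogen chain FGB at -6.53, with 16 of 29 tumors at its lowest value.

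Among the 29 tumors many pairs of members varied together, though none with STAT3 or CSF3 passed the test. Of the 45 pairs of members, 44 had a positive Pearson's r over the tumors and 21 passed at an adjusted permutation p of at most 0.05, all of them positive. By Spearman's rho 17 pairs passed, all of them among the 21. The permutation p came from 100000 resamples with 1e-05 as the smallest they can give, and was adjusted over the 45 pairs. The normals were left out, so the group difference does not enter.

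**Figure D3:**
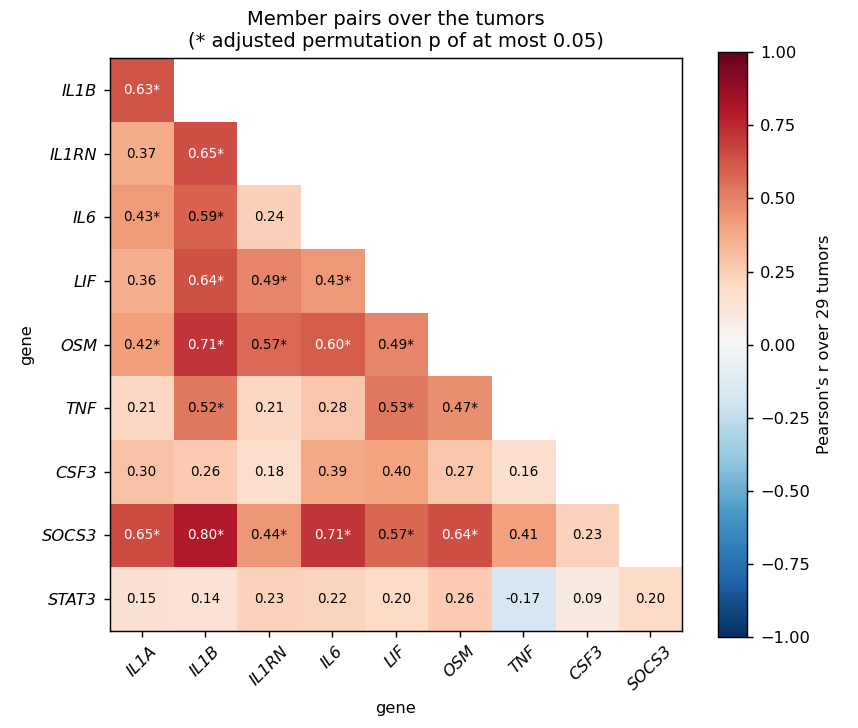
Pearson's r over 29 tumors for each of the 45 pairs of members, with an asterisk where the permutation p adjusted over the pairs is at most 0.05. The 21 asterisks lie among IL1A, IL1B, IL1RN, IL6, LIF, OSM, TNF and SOCS3, and none lies in the CSF3 or STAT3 rows.

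The highest r was between IL1B and SOCS3, 0.795 (adjusted permutation p = 0.000225, rho 0.735), and leaving out the 2 tumors with the most extreme IL1B gave 0.744. An r of at least 0.5 is uncommon in these tumors: of 24088 genes that vary, 3.63% reached it with IL1B, 3.62% with TNF, 2.8% with OSM, 2.06% with IL1RN, 1.83% with IL6, 1.22% with LIF, 1.13% with SOCS3, 0.897% with STAT3, 0.573% with IL1A and 0.386% with CSF3. SOCS3 followed the ligands of both families, with r of 0.714 for IL6, 0.651 for IL1A, 0.645 for OSM and 0.575 for LIF. The adjusted permutation p of these pairs was at most 0.00466. With the 2 tumors most extreme in the ligand left out, r was 0.633 for IL6, 0.544 for IL1A, 0.649 for OSM and 0.396 for LIF. TNF passed with LIF at 0.529, IL1B at 0.524 and OSM at 0.465, of which the last did not pass by rho and passed in 2 of 8 alternative settings. TNF and SOCS3 had r of 0.410 and an adjusted permutation p of 0.0552.

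IL1B varied with both other IL-1 genes and with the ligands of the IL-6 family. IL1B had r of 0.645 with its antagonist IL1RN and 0.631 with IL1A, with an adjusted permutation p of at most 0.00161 for both. IL1A and IL1RN had 0.368, which did not pass. In the RefSeq gene order, IL1A and IL1B are neighbours with 0 protein-coding genes between them, and 5 lie between IL1B and IL1RN. IL1B had r of 0.714 with OSM, 0.637 with LIF and 0.593 with IL6. LIF and OSM, which are likewise neighbours with 0 protein-coding genes between them, had 0.490. That is below the 0.602 of IL6 and OSM, but the difference between these coefficients was not tested. The weakest of the passing pairs were IL1A with OSM at 0.418 and IL1A with IL6 at 0.429, and neither passed by rho. IL6 and LIF had r of 0.431, which dropped to 0.218 when the 2 tumors with the most extreme IL6 were left out, so that relation rests on those tumors.

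No pair of STAT3 or CSF3 passed the test. The r of STAT3 with SOCS3 was 0.195 and with IL6 0.223, and the most negative of all pairs was TNF with STAT3 at -0.171. The adjusted permutation p of the pairs of STAT3 was at least 0.250. For CSF3, with 10 tumors above the lowest value, r ran from 0.0891 with STAT3 to 0.399 with LIF (adjusted permutation p = 0.0623), and none passed.

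**Figure D4:**
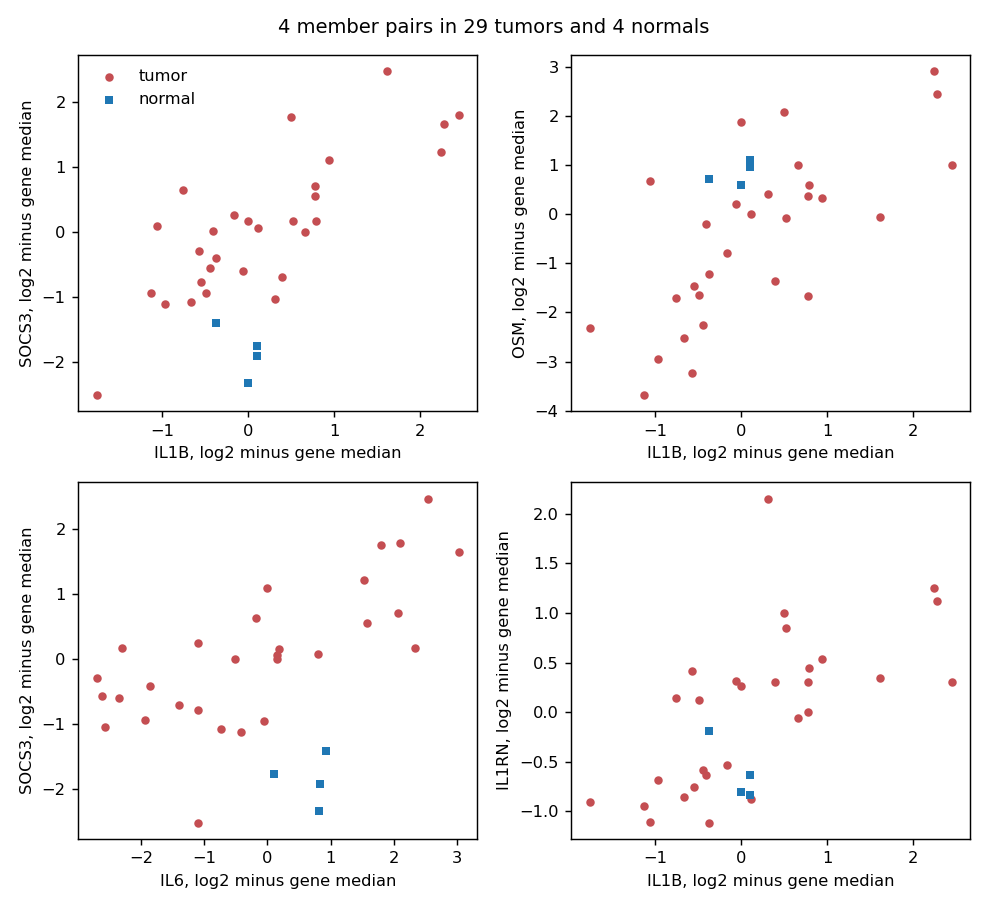
Member pairs in the 29 tumors (red) and 4 normals (blue squares), each axis the log2 value minus the gene's median over 33 samples. Pearson's r over the tumors is 0.795 for IL1B and SOCS3, 0.714 for IL1B and OSM, 0.714 for IL6 and SOCS3, and 0.645 for IL1B and IL1RN; the normals lie below most tumors along SOCS3.

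High values of several members came from the same tumors. Counting for each of the 9 members other than CSF3 the 5 tumors with the highest value, tumor 20 was among them for 7 members (IL1A, IL1B, IL1RN, IL6, LIF, OSM and SOCS3), tumors 22 and 25 for 5, and tumors 11 and 28 for 4. By contrast 12 tumors were among them for 0 members. In tumor 20, IL6 was at 3.03, OSM at 2.45, IL1B at 2.28 and LIF at 2.27. Tumor 22 differed in that OSM was at -0.06 while SOCS3 at 2.48, IL6 at 2.55 and LIF at 2.44 were high. At the other end, tumor 29 and tumor 5 were each among the 5 lowest for 6 members, and tumor 29 had IL1A at -2.97, SOCS3 at -2.51 and OSM at -2.32 with STAT3 at 0.32. Tumor 25 is among the 3 tumors that stand apart in having few genes at the lowest value. Without these 3 tumors 19 pairs passed.

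The genes most like each member over the tumors fell into recognizable kinds, which are given as a description. For SOCS3 the highest r were with DUSP1 (0.856), FOS (0.845) and ATF3 (0.840), and for IL6 with ATF3 (0.802), FOSB (0.776) and DUSP1 (0.764). All of these are immediate-early genes, which are transcribed within minutes of a stimulus and also when tissue is handled. IL1B was most like ZFP36 (0.803), which encodes a protein that destabilizes cytokine mRNA, CSF2RB (0.795), a cytokine receptor chain of myeloid cells, and JUN (0.794). Among the genes most like IL1RN were CDA (0.790) and MYO1F (0.783). OSM was most like IL2RA (0.803), PLEK (0.800) and CYSLTR2 (0.773), and TNF was most like CCL20 (0.768), APOBR (0.756) and C3orf20 (0.744). LIF was most like IER3 (0.760), SH3BP2 (0.757) and CTSH (0.742). Among those most like IL1A were CD79A (0.685), a B-cell receptor component, and RHBG (0.671). STAT3 was most like PPP1R9B (0.771), MMP14 (0.725) and ST6GALNAC6 (0.708).

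Immediate-early genes had high correlations with some members and low ones with others. The mean z score over FOS, FOSB, JUN, EGR1, ATF3, DUSP1, IER2 and ZFP36, a list put together after these values were seen, had r of 0.887 with SOCS3, 0.830 with IL1B, 0.759 with IL6 and 0.733 with OSM over the tumors. With LIF r was 0.532, with TNF 0.482, with IL1A 0.478, with IL1RN 0.360, with STAT3 0.125 and with CSF3 0.0989. After this score was regressed out of the members, 2 of the 45 pairs passed, IL1B with IL1RN at 0.665 and IL1A with SOCS3 at 0.559. Because 6 of the 8 genes are among those most like a member, the list is not independent of the pairs. The mean of EGR1 and IER2 alone, which are not among them, had r of 0.743 with SOCS3, 0.682 with IL1B, 0.581 with OSM, 0.546 with IL6, 0.270 with IL1A and 0.169 with IL1RN, and with it regressed out 13 pairs passed. Of the 8 genes, FOS, FOSB and IER2 were also called higher in tumors, at log2 fold changes of 2.13, 2.93 and 1.15, IER2 not in the DESeq-normalized table. Of all genes tested 10.7% were called higher, and 5.62% in the DESeq-normalized table. Tumors were taken by biopsy and normals by dissection, both went directly into trizol, and the part of this difference in the values was not tested.

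Markers of other cell types were set beside the members over the same tumors, as the mean z score of the measured genes of 8 lists. Of the 80 relations of a member with a list, 26 passed at a permutation p adjusted over the 80, of which 4 were negative, and 22 also passed by rho. The neutrophil list passed with 6 members (OSM, IL1B, TNF, SOCS3, LIF and IL6, with r from 0.707 down to 0.443), and LIF and IL6 did not pass by rho. Differences between lists were not tested, and the list scores were themselves correlated, at 0.633 for the macrophage and T-cell lists and -0.648 for the basal squamous and urothelial lists.

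**Figure D5:**
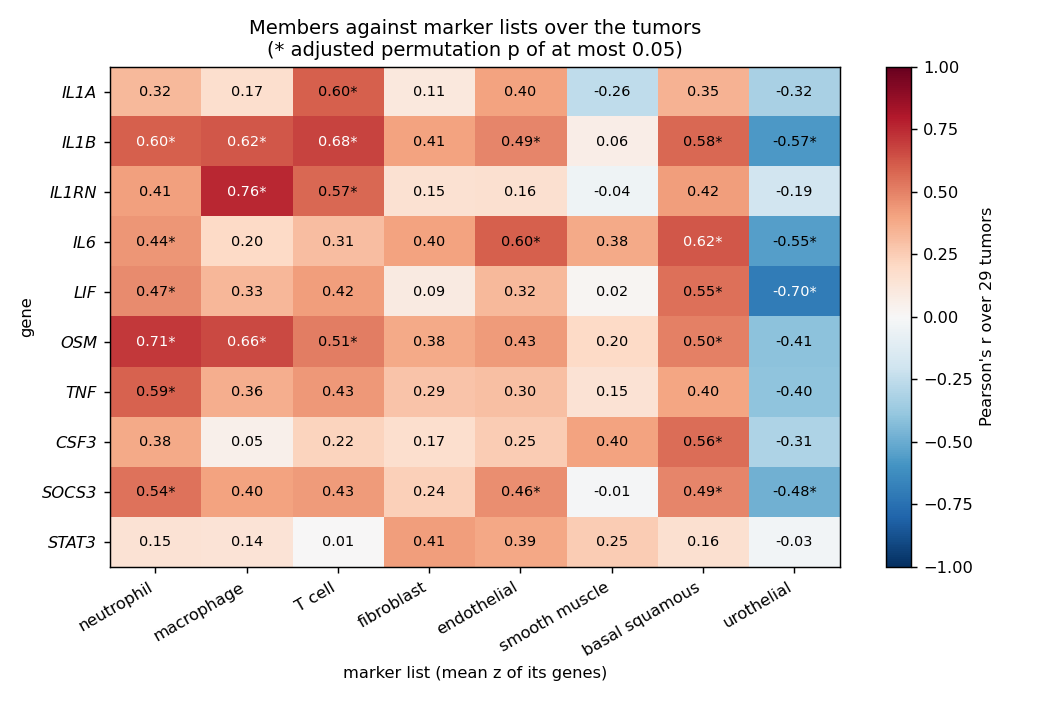
Pearson's r over 29 tumors of each member with the mean z score of 8 marker lists, with an asterisk where the permutation p adjusted over 80 relations is at most 0.05. IL1RN with macrophage markers at 0.757 and OSM with neutrophil markers at 0.707 are the highest, and LIF with urothelial markers at -0.698 is the lowest.

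IL1RN had r of 0.757 with the macrophage list (adjusted permutation p = 0.0004, rho 0.792) and 0.574 with the T-cell list. OSM passed with the neutrophil list at 0.707, the macrophage list at 0.658, the T-cell list at 0.508 and the basal squamous list at 0.504. IL1B had positive relations with 5 lists, the highest being 0.678 with T-cell and 0.623 with macrophage markers, and IL1A had 1, with T-cell markers at 0.599. TNF passed with the neutrophil list at 0.588, and by rho also with the basal squamous list (rho 0.452). The neutrophil list was read from 6 of 9 genes, the macrophage list from 8 of 10 and the T-cell list from 8 of 8. Between tumors and normals, where 10.7% of all genes were higher and 45.8% lower, 1 of 6 neutrophil markers was higher (S100A8, called in 6 of 13 fits) and 1 lower (MMP8), and 1 of 8 macrophage markers was higher (CD68). Of the 8 T-cell markers 0 were called by limma and 0 had an unadjusted p under 0.05. In the DESeq-normalized table TREM1 and MMP8 of the neutrophil list and CD3D and ZAP70 of the T-cell list were lower.

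LIF, IL1B, IL6 and SOCS3 ran against the urothelial differentiation list. Its genes are uroplakins, KRT20 and the factors GATA3, PPARG and FOXA1. The r was -0.698 for LIF (adjusted permutation p = 0.0004, rho -0.592), -0.573 for IL1B, -0.554 for IL6 and -0.479 for SOCS3, which did not pass by rho (-0.434), and OSM at -0.414 did not pass (adjusted permutation p = 0.0610). With the 2 tumors most extreme in the member left out, r was -0.561 for LIF, -0.375 for IL6 and -0.377 for IL1B. With the basal squamous list, of which KRT14, DSG3 and PI3 were measured out of 7 genes, r was 0.618 for IL6, 0.575 for IL1B and 0.550 for LIF, and with the 2 tumors most extreme in the member left out 0.513, 0.378 and 0.389. OSM and SOCS3 also passed with it, at 0.504 and 0.486. The endothelial list passed with IL6 at 0.596, IL1B at 0.492 and SOCS3 at 0.463. CSF3 had 0.556 with the basal squamous list but a rho of 0.321 that did not pass, and with the neutrophil list r of 0.382, which did not pass, and rho of 0.498, which did. STAT3 passed with none of the 8 lists, its highest r being 0.414 with fibroblast markers at an adjusted permutation p of 0.0610.

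With the macrophage and T-cell scores regressed out of the members, 10 of the 45 pairs passed. IL1B and IL1RN then had r of 0.290, against 0.645 before. The pair of IL1A and SOCS3 passed by Pearson's r in all 8 alternative settings fitted for the pairs, with r from 0.559 to 0.699, and by rho (0.611). Leaving out the 2 tumors most extreme in IL1A gave 0.544. The pairs of IL1B with SOCS3 and of IL6 with SOCS3 passed in 7 of the 8, and in the other, with the immediate-early score regressed out, r was 0.230 and 0.136. That score holds genes among those most like IL1B, IL6 and SOCS3, so the counts of settings do not rank the pairs.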

How the data were processed

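RNA of 4 normal samples and 29 tumors, each tumor from a different dog, was sequenced in 1 batch after removal of ribosomal RNA. Per the labels and the methods of the study, the authors aligned paired-end reads to CanFam3.1 with COBWeb in Strand NGS 3.1, quantified annotated genes and normalized the result in 2 ways, by TMM and by DESeq. The deposited values are on the log2 scale, centred per gene on the median of its 33 samples, and no counts are in the tables, so depth is known only through the worth of 1 read pair. The scale and the centring were read from the values. Because the values were already log2 they were used as deposited, with no pseudocount. The last line of each table was cut short and was left out. The tables of the authors held 25096 (TMM) and 25139 (DESeq) genes.

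Genes above a shared lowest value in fewer than 4 samples were not tested (leaving 24471 genes, and 24517 in the second table). The groups were compared two-sided by limma 3.58.1 under R 4.3.3, with lmFit and a mean-variance trend in eBayes, in place of the count tests of the study. The exact permutation tests were made with scipy 1.17.1. Correlations over the 29 tumors used numpy 2.4.6 and pandas 2.3.3 in Python 3.11.15. The limma fit and the permutation test of correlations were tested on simulated data, and the other steps were not. The sources used here do not say that each normal came from a different dog, and p-values measure the spread between these samples. Named genes are all members, at most the 2 largest rises and falls past both thresholds in each pathway list, and the 3 genes most correlated with each member that lies above its lowest value in at least 15 tumors. Some genes that this rule picks are not reported here. Other genes are named where a result touches them, chosen after their values were seen. The members, gene lists and alternatives were chosen with earlier results of these data known. The RefSeq gene table, of another canine assembly (UU_Cfam_GSD_1.0) than the files, matched all 10 members and was used only for gene order. No sequence or coordinate is given. The alternatives were the DESeq-normalized table of the authors, no trend, a weight per group, other filters, no fold-change threshold, another centring of samples, values raised to 4 normalized units, each normal left out, Spearman's rho, tumors left out, the number of genes at the lowest value regressed out and the median z of a list. Leaving out the 3 tumors that stand apart and regressing out marker or immediate-early scores were chosen after seeing the data.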

Additional observations from a re-analysis of the deposited data

Results flagged for a closer look

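The normals were checked gene by gene for a sample far from the other 3, by the gap to its nearest neighbour as a share of the range, over 26 genes (the members and the pathway genes named). Chance marks about 1 in 20 such groups, and 2 genes were marked. IL6 was at 0.10 in normal 4 against 0.81 in the nearest normal, a ratio of 0.854. Without normal 4 the log2 fold change of IL6 kept its sign and did not pass the test. CNTFR was at 3.42 in normal 1 against 4.83 in the nearest, a ratio of 0.883, and it was called lower in all 13 fits.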

How the results depend on the processing

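No paired analysis was possible because the labels give the normals and tumors no shared replicate numbers. Of the 139 values of single members under an alternative, 129 kept their direction and their side of the threshold, 8 were no longer called, 1 was newly called (STAT3 with no fold-change threshold) and 1 reversed, IL1B at -0.084 in the DESeq-normalized table. The DESeq-normalized table gave 1377 genes called higher and 1 member called higher, and no fold-change threshold gave 5603 genes called higher. Requiring values above the lowest in 15 samples gave 5981 genes called lower and 0 members called lower, since CSF3 was then not tested. Values raised to 4 normalized units also gave 0 members called lower, with 0 at an unadjusted p under 0.05 by limma. Leaving out each normal in turn gave 2222 to 2695 genes called higher, 10596 to 11067 called lower, 1 to 2 members called higher and 0 to 1 called lower. Of the 45 pairs, 17 to 22 passed under the other settings but 10 with the macrophage and T-cell scores regressed out, 2 with the immediate-early score regressed out and 13 with EGR1 and IER2 alone. With the immediate-early score regressed out, IL1B and IL6 reversed to -0.102 and OSM and SOCS3 to -0.0172, and the cause was not tested. Between 23 and 29 of the 80 relations with marker lists passed. With 4 normals the 95% intervals of IL6 and OSM spanned rises and falls. Values of CSF3 near 1 read pair carry a counting error that the log2 scale hides.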
